A study of Rattus norvegicus with 9 samples.

Results

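The cytosolic ribosomal protein genes and their numbered copies were examined in the left ventricle of a rat model of myocardial ischemia-reperfusion injury (IRI). Members were the genes whose probe sets carry a single symbol that begins with Rpl or Rps and a number, without the ribosomal S6 kinases, and where a gene had several probe sets, that of the highest mean signal on all 9 arrays stood for it. The rule took 290 symbols of 21013 genes with a single symbol. Of these, 66 were canonical ribosomal protein genes, 221 were copies whose symbol adds l or ps and a number to that of a canonical gene, 2 were paralogs named with an l alone (Rpl3l and Rps27l), and 1, Rps19bp1, is a binding protein and was not counted as a member, which leaves 289 members. RNA of the cardiac left ventricle of male Wistar rats was measured on 9 arrays, 3 per group. In the control group a thread was placed around the left anterior descending coronary artery for 60 min without occlusion. In the IRI group that artery was blocked for 45 min, and a stabilization of 15 min followed its opening. The RpostC_IRI group had the same 45 min of occlusion and then remote ischemic postconditioning, which was a clamp of 30 s on the left femoral artery and a release of 30 s, repeated 3 times, before the 15 min of stabilization. All rats had open chest surgery under pentobarbital and were of the same age. The general account of the surgery gives a shorter ligation than these group descriptions, and how long after reperfusion the ventricle was taken is not given in the sources. Nothing states that each array stands for its own rat, so the p-values cover only the spread from array to array, which may be technical.

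Ribosomes translate mRNA into protein. Each is built of a large subunit, whose proteins carry the prefix Rpl, and a small subunit, whose proteins carry the prefix Rps, around ribosomal RNA. The subunits hold 1 copy of nearly every protein, and the genes are active in all cells, including cardiomyocytes, in which translation follows the state of nutrients and energy through the kinase mTOR. Ribosomal protein mRNAs are abundant and are often reverse transcribed back into the genome, so that mammalian genomes carry many intronless copies, most of them processed pseudogenes and some annotated as protein coding. Most canonical transcripts begin with a C followed by a run of pyrimidines, the 5′ terminal oligopyrimidine (TOP) motif, through which mTOR and Larp1 set their translation.

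The bases around the annotated start are shown for the first 6 genes of the list of members with known roles, since this motif is the known feature of ribosomal protein mRNAs that a genome sequence can show. The sequences come from the RefSeq promoter table of the GRCr8 build, run 5′ to 3′ on the strand of the gene, and hold 10 bases before the annotated start and 20 from it on. A tract was a C followed by at least 4 bases that are each C or T. Capitals mark the longest one that begins within 10 bases of the start, with any shorter ones left in lower case.
Rpl3 (chr7:113507971-113508000, minus strand): gcctgctcgatctctatcggcggcgtgtgg
Rps27 (chr2:177964587-177964616, minus strand): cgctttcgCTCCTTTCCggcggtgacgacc
Rpl22 (chr5:168117951-168117980, plus strand): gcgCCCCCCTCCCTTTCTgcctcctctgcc
Rpl39 (chrX:121195877-121195906, minus strand): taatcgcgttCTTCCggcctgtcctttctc
Rpl10 (chrX:157205840-157205869, plus strand): gtgggagcgtCTCTTTTCCTCTggcgcggt
Rpl36a (chrX:102059439-102059468, plus strand): tataaaCTTCCgttgctgctctagcctctc

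In Rpl39 and Rpl10 the tract began at the annotated first base itself, with lengths of 5 and 12 bases, whereas the window of Rpl3 held none. Such a tract began within 10 bases of the start in 44 of the 56 canonical genes found in the promoter table (78.6%), in 33 of 99 copies (33.3%) and in 28.9% of all 33469 promoters, searched on the transcript strand only. The annotated first base was itself a C followed by at least 4 pyrimidines in 22 canonical genes (39.3%), 4 copies (4.0%) and 2.6% of all promoters. These counts include genes such as Rps27 and Rpl22, whose run of pyrimidines had begun before that base. A match describes these letters and no more.

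The deposited values are log2 signals from 2.04 to 19.93, and the arrays of the control group stood apart from the other 6. The Pearson correlation of 2 arrays over all probe sets was 0.979 to 0.997 within a group and 0.992 to 0.996 between IRI and RpostC_IRI arrays, but 0.808 to 0.856 between a control array and any other. At a log2 signal of at least 19 stood 166 to 172 probe sets of a control array but 1918 to 1948 of any other, while the mean of 4 added hybridization controls was 10.93 to 11.48 on control arrays and 10.09 to 10.83 elsewhere. The group and the way the arrays were made or normalized cannot be told apart for any difference from the control group. After quantile normalization, which forces the same distribution of values on every array, 42 of 66 canonical genes and 110 of 221 copies were lower in IRI than in control, and values under this scaling are given beside the main results. The tissue carried its defining markers, since the mean log2 signal of 13 cardiomyocyte markers was 14.70 to 14.84 on control arrays and 15.52 to 15.85 on IRI arrays, with none under 4.95, the 95th percentile of 275 chemosensory receptor probe sets that served as the background limit. Markers of some other cell types differed as well. The mean over 6 endothelial markers was 7.69 to 8.16 in control and 9.81 to 10.70 in IRI (4 higher). That over 8 fibroblast markers was 7.53 to 8.10 and 8.79 to 8.85 (4 higher). That over 6 neutrophil markers was 4.98 to 5.10 and 6.02 to 6.29 (3 higher), with 2 neutrophil markers under the limit in control. Of 5 lymphocyte markers, 4 were under the limit in control and all 5 in IRI. For 7 macrophage markers the mean was 5.99 to 6.13 in control and 6.21 to 6.59 in IRI. Of these, 0 were higher and 0 were lower, on deposited values and after quantile normalization. The mean over 6 smooth muscle and pericyte markers was 9.63 to 9.84 in control and 8.90 to 10.30 in IRI, with 1 lower (Acta2). That over 3 erythroid markers was 5.52 to 5.63 and 5.03 to 5.08, with 1 lower (Alas2). After quantile normalization 0 cardiomyocyte markers were higher and 12 were lower. The counts of higher and lower were 2 and 2 for endothelial, 1 and 3 for fibroblast, 3 and 0 for neutrophil, 0 and 3 for smooth muscle and 0 and 1 for erythroid markers. Their part in the results was not tested, and in bulk tissue fewer cells of a type cannot be told apart from less RNA per cell.

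On the deposited values, IRI arrays differed from control arrays toward higher signals of canonical ribosomal protein genes, whereas after quantile normalization the direction was the opposite. With limma (Benjamini-Hochberg adjusted p under 0.05 over 65403 probe sets), 24 of 66 canonical genes were higher and 4 were lower, beside 9.95% and 6.26% of all probe sets, and after quantile normalization 1 was higher and 42 were lower, beside 7.25% and 13.7%. The median log2 difference of the 66 genes was 0.32, beside −0.04 over all probe sets, and it was −0.72 after quantile normalization, beside −0.02. Across arrays the median signal of all probe sets was 4.36 to 4.55, under the background limit of 4.95. That of the canonical genes was 8.04 to 9.1. The shares over all probe sets are thus taken mostly over probe sets at background, and the share among equally bright ones is not given. After quantile normalization, 12 of 13 cardiomyocyte markers and 37 of 44 translation factors were lower as well, and 0 and 1 were higher. On the deposited values, 35 canonical genes had all 3 IRI arrays above all 3 control arrays and 4 had them all below, beside 14.8% and 14.6% of all probe sets. Centring each array on its own median, which moved the median difference of all probe sets from −0.04 to 0.05, gave 26 higher and 3 lower, beside 11.4% and 4.48%. Without adjustment, at a p under 0.05, 36 were higher and 5 were lower, beside 27.8% of all probe sets in either direction. On the 3 IRI arrays 29 of the 66 canonical genes held 1 identical value, against 17 of 221 copies and 8176 of 65403 probe sets. For these genes the spread behind the SE and p comes only from the control and RpostC_IRI arrays and the prior of the fit.

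**Figure D1:**
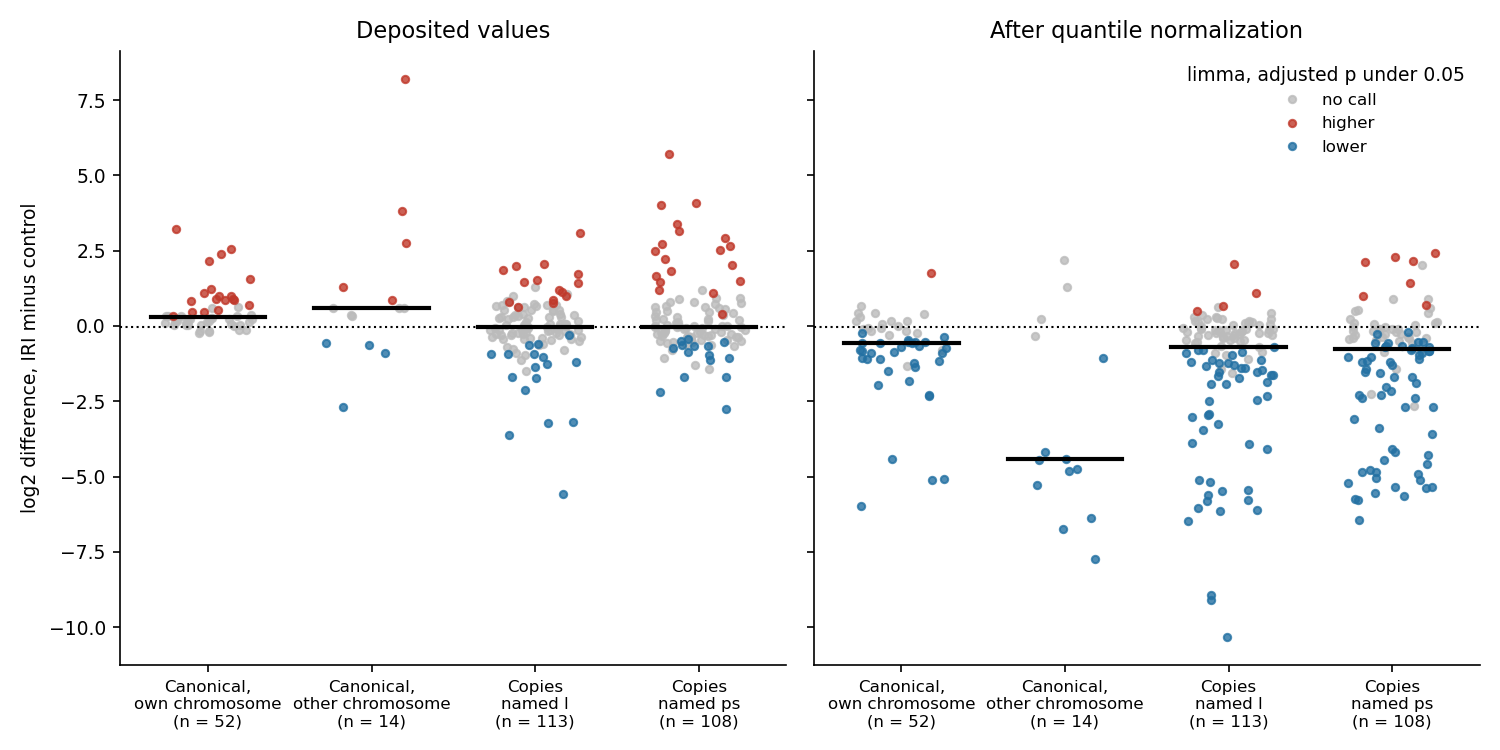
Each point is 1 gene, and the y axis is the log2 difference of the mean of 3 IRI arrays from that of 3 control arrays, on deposited values (left) and after quantile normalization (right). Black bars are the medians of 4 sets, the dotted line is the median of all probe sets, and colours are limma calls. The sets are canonical genes with a probe set on their own chromosome (52) or another (14), and copies named l (113) or ps (108). Their medians are 0.30, 0.60, −0.04 and −0.05 on the left and −0.56, −4.43, −0.69 and −0.77 on the right. On deposited values the canonical genes lie mostly above 0 and the copies on both sides (medians of the whole classes 0.32 and −0.05). After quantile normalization both classes lie mostly below 0 (medians of the whole classes −0.72).

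Among proteins of the large subunit, 14 of 41 genes were higher and 1 was lower (9.95% and 6.26% of all probe sets), and after quantile normalization 0 were higher and 26 were lower (7.25% and 13.7%). Rpl37a, a zinc-binding protein of the large subunit, had log2 signals of 10.82, 9.29 and 10.97 on the control arrays, 19.16, 18.33 and 18.21 on the IRI arrays, and 18.68, 18.59 and 18.57 on the RpostC_IRI arrays. No value of either treated group came near the control arrays, the difference of IRI from control being 8.21 ± 0.46 (SE, limma adjusted p = 1.35e-05). After quantile normalization it was 2.19 and no longer passed the test (limma adjusted p = 0.308). Rpl39, a very small protein that lines the exit tunnel of the nascent chain and whose start is shown above, read 9.03, 8.40 and 7.48 in control, 11.34, 10.83 and 10.99 in IRI, and 11.23, 11.37 and 11.03 in RpostC_IRI. The control arrays lay below all others, while IRI and RpostC_IRI arrays overlapped. The difference of IRI from control was 2.75 ± 0.36 (limma adjusted p = 0.00177), which stood at 1.28 after quantile normalization (limma adjusted p = 0.0571). Rpl7, an RNA-binding protein of the large subunit, was at 10.65, 10.43 and 10.11 in control and at 12.48, 12.48 and 12.72 in IRI, higher by 2.17 on deposited values but lower by 1.84 after quantile normalization. Rpl22, which binds RNA and is dispensable for translation as such, was at 11.56, 11.87 and 11.54 in control and at 12.94, 12.93 and 13.03 in IRI, a difference of 1.31 that turned to −4.76.

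The 1 large subunit gene that fell was Rpl10a, a protein of the mobile L1 stalk beside the exit site for tRNA. It read 13.09, 12.83 and 13.19 in control, 10.48, 10.15 and 10.38 in IRI, and 10.46, 10.44 and 9.91 in RpostC_IRI. All treated arrays lay below all control arrays, by a log2 difference of −2.70 ± 0.18 for IRI (limma adjusted p = 3.31e-05) and of −7.73 after quantile normalization. For other large subunit genes with known roles the 2 scalings differed. Rpl5 and Rpl11, which together with 5S RNA hold back Mdm2 when ribosome assembly fails, differed by 0.15 and 0.12 (limma adjusted p = 0.0528 and 0.453). After quantile normalization they differed by −0.90 and −0.23 (limma adjusted p = 9.28e-05 and 0.182). Rpl10, which joins the large subunit last, differed by 0.18 (limma adjusted p = 0.339) and by −1.16 after quantile normalization (limma adjusted p = 0.000181). Rpl13a, known in human cells to leave the ribosome and silence inflammatory mRNAs, was at 9.19, 9.12 and 8.67 in control and at 9.71 on all 3 IRI arrays, and it rose by 0.71 (limma adjusted p = 0.00745), but after quantile normalization it was lower by 0.91.

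Of 25 genes of the small subunit, 10 were higher and 3 were lower, beside the same 9.95% and 6.26% of all probe sets, and after quantile normalization 1 was higher and 16 were lower. By the probe set of highest mean, the 1 gene called higher under both scalings was Rps4x, which lies on the X chromosome. It read 8.53, 7.87 and 8.19 in control, 11.72, 11.28 and 11.28 in IRI, and 11.73, 11.63 and 11.44 in RpostC_IRI. The difference of IRI from control was 3.23 ± 0.19 on deposited values and 1.75 after quantile normalization (limma adjusted p = 1.99e-05 and 0.000298). Of the 66 probe sets that stood for a canonical gene, that of Rps4x alone was called higher on deposited, centred and quantile normalized values. Other probe sets of Rpl39 and Rps21, given below, were also called higher on deposited and on quantile normalized values. Rps29, a zinc-binding protein of the small subunit head, read 17.57, 15.57 and 15.16 in control and 19.93 on all 6 other arrays, which is the highest value in the table. Actc1 read 19.93 on all 9 arrays and Myh7 on the same 6, so this value may be a ceiling of the scale. The difference of Rps29 was 3.83 ± 0.56 (limma adjusted p = 0.00291), with the control arrays spread over more than 2 log2 units and no spread in IRI. It was −1.05 after quantile normalization. Rps3a and Rps20 rose by 2.56 and 2.38 and differed by 0.08 and 0.31 after quantile normalization, neither of which passed the test. Rps6, the substrate of the S6 kinases downstream of mTOR, read 9.83, 9.20 and 9.0 in control and 10.21 on all 3 IRI arrays. It rose by 0.87 ± 0.20 (limma adjusted p = 0.025) on deposited values, did not pass the test without control replicate 2 or 3 or without any 1 of the IRI arrays (limma adjusted p = 0.0568 to 0.0786), and was lower by 1.08 after quantile normalization.

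The small subunit genes that fell were Rps21, Rps14 and Rps2. After quantile normalization all 3 were lower as well, with log2 differences of −6.36, −6.73 and −4.44. Rps21, a small subunit protein particular to eukaryotes, was at 12.80, 12.74 and 12.85 in control and at 12.11, 11.81 and 11.80 in IRI, a difference of −0.89 ± 0.13 (limma adjusted p = 0.00274). Rps14, whose loss on 1 allele underlies the anemia of the 5q deletion in humans, was at 12.03, 11.37 and 11.48 in control and at 11.04, 10.90 and 11.04 in IRI, and the groups did not overlap. Its difference of −0.63 ± 0.17 (limma adjusted p = 0.0439) lost the call when each of several single arrays was left out, any IRI or RpostC_IRI array or control replicate 3 (limma adjusted p = 0.0616 to 0.133). Rps2, at the entry of the mRNA channel, was at 10.21, 10.21 and 10.44 in control and at 9.81, 9.60 and 9.77 in IRI, a difference of −0.56 ± 0.08 (limma adjusted p = 0.00271). Rps19, mutated in human Diamond-Blackfan anemia, differed by 0.32 (limma adjusted p = 0.341), and by −1.23 after quantile normalization (limma adjusted p = 0.000391).

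**Figure D2:**
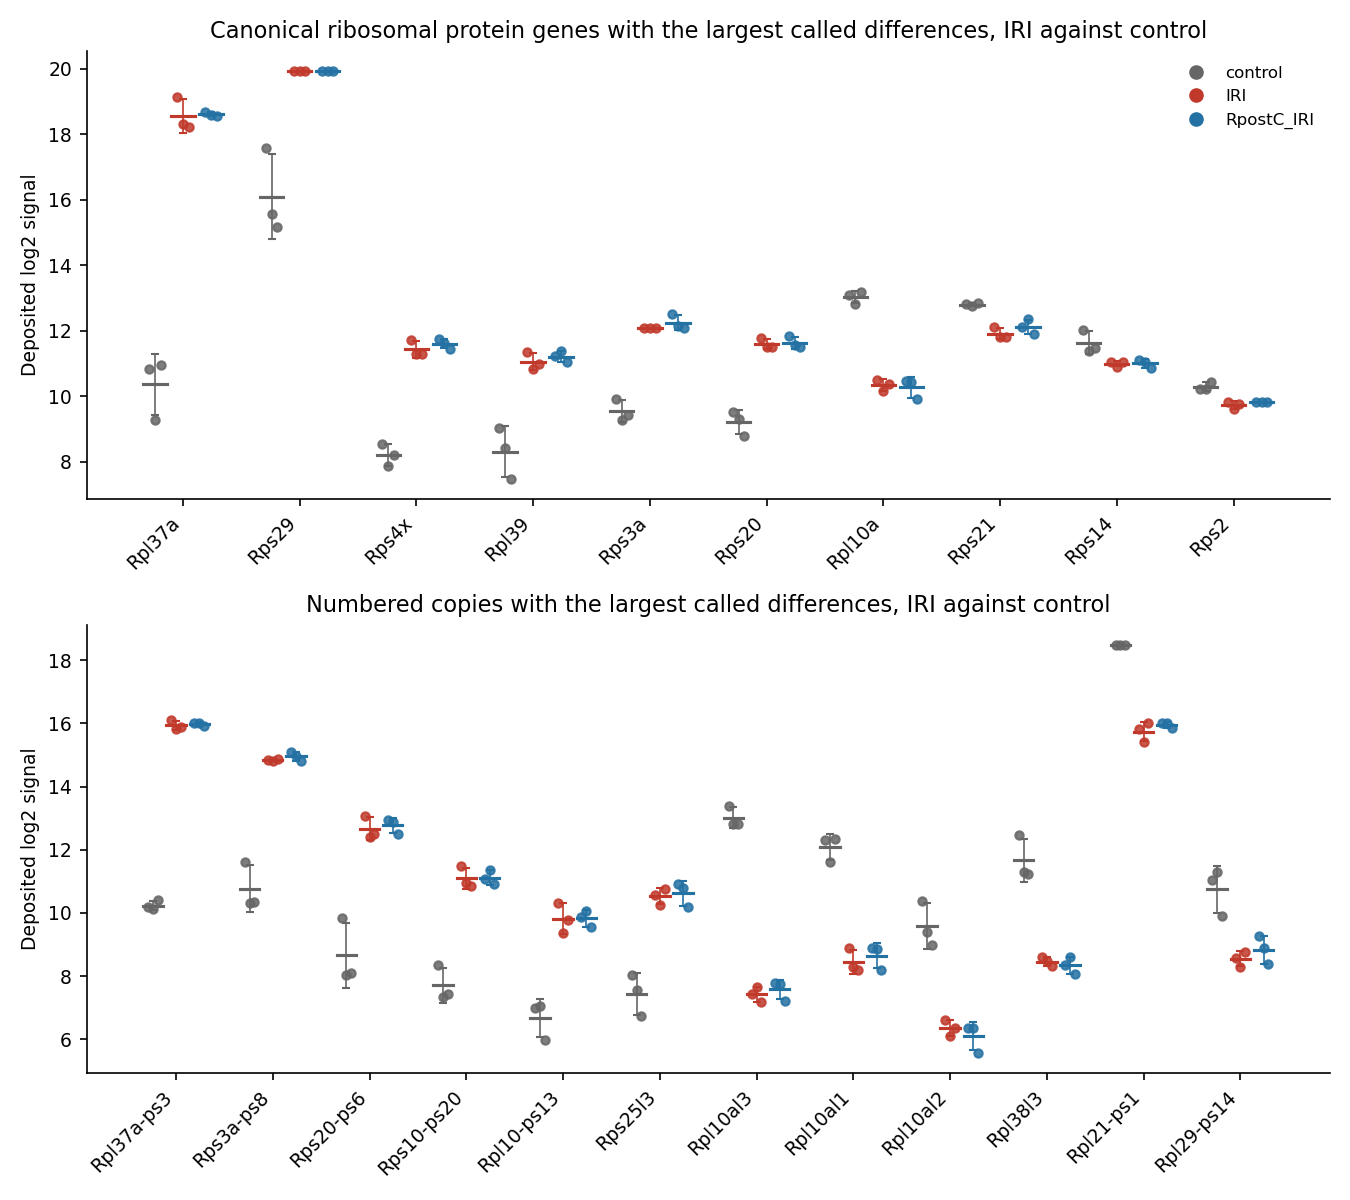
Deposited log2 signals (y axis) of the canonical genes (top) and numbered copies (bottom) with the largest called differences of IRI from control, with 1 point per array, a bar at the mean and whiskers of 1 SD (n = 3). The ranges of IRI and RpostC_IRI arrays overlap or meet for each gene shown and stand clear of the control arrays, from Rpl37a, 8.21 higher in IRI, to Rpl10al3, 5.58 lower. After quantile normalization Rps29 and Rps3a-ps8 change direction (−1.05 and −1.42).

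Which locus a canonical probe set reads bears on these values. The identifiers of the probe sets name a chromosome, which for 98.5% of 21929 single-symbol probe sets was that of the gene in RefSeq. For 14 of the 66 canonical genes the probe set with the highest mean named another chromosome, namely for Rpl10a, Rpl13, Rpl22, Rpl35a, Rpl37, Rpl37a, Rpl39, Rps2, Rps7, Rps14, Rps18, Rps21, Rps24 and Rps29, a group formed after the values were seen. All 4 genes called lower were among these 14, and so were 5 of the 24 called higher, Rpl37a, Rps29, Rpl39, Rpl22 and Rps24. The 52 probe sets on the chromosome of their gene held 19 that were higher, 0 that were lower and 33 without a call, with differences from −0.24 to 3.23 and a median of 0.30, while after quantile normalization 1 of them was higher and 32 were lower. Without adjustment, at a p under 0.05, 29 of the 52 were higher and 1 was lower on deposited values.

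The 18 canonical genes with more than 1 probe set show how far the probe sets of 1 gene parted. Rps14 was at 5.79, 5.68 and 5.79 in control and 5.91, 5.79 and 5.79 in IRI on the probe set of its own chromosome, 18, a difference of 0.08 (limma adjusted p = 0.403), beside −0.63 on the probe set of chromosome 5 described above. For Rps21 the probe set of chromosome 3, its own, differed by −0.15 (limma adjusted p = 0.415), that of chromosome 5 by −0.89, and that of chromosome X by 1.15, from 5.79, 5.38 and 5.84 to 6.82, 6.82 and 6.83 (limma adjusted p = 0.00794). After quantile normalization the probe set of chromosome X was still higher, by 0.88 (limma adjusted p = 0.0151). Those of chromosomes 3 and 5 were then at −6.34 and −6.36. Rps21 was the 1 canonical gene with probe sets called in both directions. Rps2 fell on both of its probe sets, by 0.79 on its own chromosome, 10, and by 0.56 on chromosome 3, and remained lower on both after quantile normalization (−2.03 and −4.44). For Rpl22 the probe set of its own chromosome, 5, stood at 7.04, 7.14 and 7.14 in control and at 7.14 on all 6 other arrays, a difference of 0.04, beside 1.31 on the probe set of chromosome 4 and −1.03 on that of chromosome 7 (limma adjusted p = 0.593, 0.00393 and 0.108).

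The probe sets of Rpl39 and Rps29 had 1 direction each on the deposited values. All 6 probe sets of Rpl39 had positive differences, from 0.59 to 4.96, and 5 of them passed the test, of which the 1 on chromosome 15 read 6.78, 6.63 and 6.40 in control and 11.99, 11.24 and 11.45 in IRI and kept a difference of 3.95 after quantile normalization (limma adjusted p = 1.39e-05 and 6.11e-06). On its own chromosome, X, a probe set of Rpl39 rose from 4.99, 5.19 and 4.67 to 6.50, 6.19 and 6.23, by 1.36 on deposited values and 1.26 after quantile normalization (limma adjusted p = 0.00145 and 0.00117). All 4 probe sets of Rps29 rose, by 2.04 on its own chromosome, 6, and by 2.57, 4.16 and 3.83 on chromosomes 3, 13 and 7, but after quantile normalization the differences were 0.68, −2.39, −0.94 and −1.05. Rpl37a, with the largest difference of all canonical genes, had no single-symbol probe set on its own chromosome, 9, and its other probe set, on chromosome 11, differed by 1.58 (limma adjusted p = 0.0835). Whether a probe set on another chromosome reads the canonical mRNA, a copy or both was not tested.

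**Figure D3:**
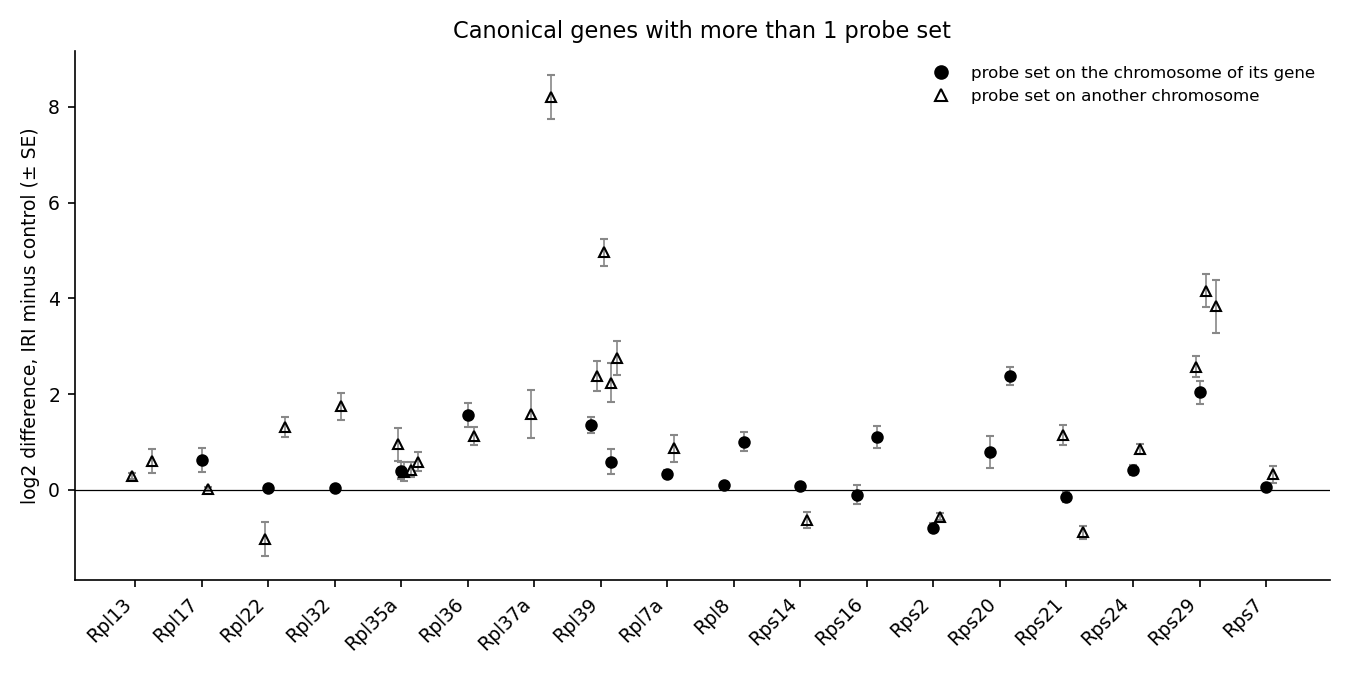
The log2 difference of IRI from control on deposited values (y axis, point ± SE from limma, n = 3 arrays per group) for each single-symbol probe set of the 18 canonical genes with more than 1. Filled circles are probe sets on the chromosome of the gene and open triangles those on another. Rps21 has values from −0.89 to 1.15, while those of Rpl39 and Rps29 all lie above 0 here and in part below 0 after quantile normalization.

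The numbered copies were called in both directions in about equal numbers on the deposited values, and mostly lower after quantile normalization. Of 221 copies, 34 were higher and 32 were lower with limma, that is 15.4% and 14.5% beside 9.95% and 6.26% of all probe sets, and their median difference was −0.05, ranging from −5.58 to 5.71. After quantile normalization 11 were higher and 110 were lower, with a median of −0.72. All 3 IRI arrays lay above the control arrays for 66 copies and below them for 59, beside 14.8% and 14.6% of all probe sets. The methods' t-test with adjustment called 18 higher and 14 lower, and without dim probe sets the median was 0.28. For neither setting is the figure over all probe sets given here. By kind, 15 were higher and 17 lower of 113 copies named l, and 19 and 15 of 108 named ps. After quantile normalization the counts were 4 and 50 and 7 and 60. By RefSeq annotation, 17 were higher and 17 lower of 122 protein coding copies, and 17 and 15 of 97 pseudogenes. After quantile normalization these were 4 and 59 and 7 and 51, and no test between the kinds was made. Of the copies, 18 were under the background limit in all groups, against 0 of the canonical genes, and 214 of 221 read a probe set on their own chromosome.

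Rpl37a-ps3, a pseudogene on chromosome 10, had the largest rise among the copies. It read 10.17, 10.13 and 10.40 in control, 16.12, 15.82 and 15.88 in IRI, and 16.01, 16.01 and 15.91 in RpostC_IRI, so that the control arrays lay close together and far below the rest. The difference was 5.71 ± 0.10 (limma adjusted p = 3.57e-08), and 0.89 after quantile normalization (limma adjusted p = 0.43). Rps3a-ps8 rose from 11.62, 10.33 and 10.36 to 14.83, 14.82 and 14.87, by 4.07, but was lower by 1.42 after quantile normalization without passing the test, and Rps20-ps6 rose from 9.85, 8.02 and 8.10 to 13.08, 12.40 and 12.51, by 4.01, and differed by 2.03 after it (limma adjusted p = 0.0518). Rps10-ps20, annotated as protein coding, rose from 8.35, 7.33 and 7.44 to 11.48, 10.95 and 10.85, by 3.39 ± 0.30, and by 2.15 after quantile normalization, both past the test (limma adjusted p = 0.000199 and 0.00105). Rpl10-ps13 rose from 7.0, 7.04 and 5.98 to 10.32, 9.35 and 9.77, and Rps25l3 from 8.05, 7.56 and 6.73 to 10.57, 10.26 and 10.77. Both stayed higher after quantile normalization, by 2.41 and 2.05. The 11 copies called higher on deposited, centred and quantile normalized values were these last 3 with Rpl26-ps1, Rpl37-ps1, Rpl37l3, Rpl4-ps1, Rpl6-ps1, Rpl7l1, Rps10l6 and Rps20-ps1.

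The copies that fell most were those of Rpl10a. Rpl10al3 read 13.40, 12.82 and 12.82 in control, 7.44, 7.66 and 7.19 in IRI, and 7.77, 7.73 and 7.23 in RpostC_IRI, a difference of −5.58 ± 0.22 for IRI (limma adjusted p = 2.03e-06). Rpl10al1 fell from 12.31, 11.60 and 12.35 to 8.88, 8.28 and 8.19, and Rpl10al2 from 10.39, 9.39 and 8.99 to 6.59, 6.11 and 6.36. With Rpl10a-ps1, which fell by 0.67, 4 of the 6 copies of Rpl10a passed the test, although Rpl10a-ps1 did not without any 1 of the control or IRI arrays (limma adjusted p = 0.0524 to 0.108) or with the replicate number as a block (limma adjusted p = 0.0816), and the other two, Rpl10a-ps11 and Rpl10a-ps5, differed by −0.79 and −0.38. The same 4 and Rpl10a itself were also lower after quantile normalization, from −0.81 for Rpl10a-ps1 to −10.34 for Rpl10al3. Both Rpl10a and Rpl10al2 read probe sets on chromosome 4, which is that of neither gene. Rpl38l3 fell from 12.45, 11.29 and 11.24 to 8.61, 8.47 and 8.31, and Rpl21-ps1 from 18.49 on all 3 control arrays to 15.82, 15.40 and 16.00. Rpl29-ps14 fell from 11.06, 11.28 and 9.91 to 8.57, 8.29 and 8.77. For all 3 the direction held after quantile normalization.

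Copies were then set beside the gene they are named after. Of the 221, 207 had a measured parent among 58 canonical genes. Both copy and parent were called in 26 cases, 23 of them in the same direction, and in 3 the copy was lower and the parent higher, namely Rpl36l1, Rps12l2 and Rps6-ps8. Of these calls, that of Rps12l2 was lost without any 1 array but control replicate 3 (limma adjusted p = 0.0521 to 0.121), and that of Rps6-ps8 without control replicate 1 or IRI replicate 1 or 2 (limma adjusted p = 0.0697 to 0.0783). A further 36 copies were called while the parent was not. The difference of the copy was within 1 log2 unit of that of its parent in 131 cases, and the Pearson correlation across the 207 copies was 0.40, given as a description, since copies of 1 gene share their parent and similar probes. Copies of 1 gene could part from each other. Rpl37a-ps3 rose by 5.71 while Rpl37al2 and Rpl37a-ps14 differed by −0.41 and −0.27, without passing the test, beside 8.21 for Rpl37a. Rpl38l3 fell by 3.20 while Rpl38l1 and Rpl38-ps1 rose by 2.05 and 1.84, beside 0.26 for Rpl38, but after quantile normalization the latter 2 were at −1.11 and −2.67, and Rpl38-ps1 missed the threshold without any 1 of the IRI or RpostC_IRI arrays (limma adjusted p = 0.051 to 0.114). Rpl4 and Rpl36 were the other 2 genes with copies called both ways, Rpl4-ps1 by 1.49 and Rpl4-ps8 by −1.69, and Rpl36l6 by 0.64 and Rpl36l1 by −0.93, which held their signs after quantile normalization. Among the genes with most copies, the 11 copies of Rps2 held 0 higher and 3 lower, the 8 of Rpl31 held 3 higher and 0 lower, and the 7 of Rpl29 held 0 higher and 3 lower, all on deposited values alone.

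**Figure D4:**
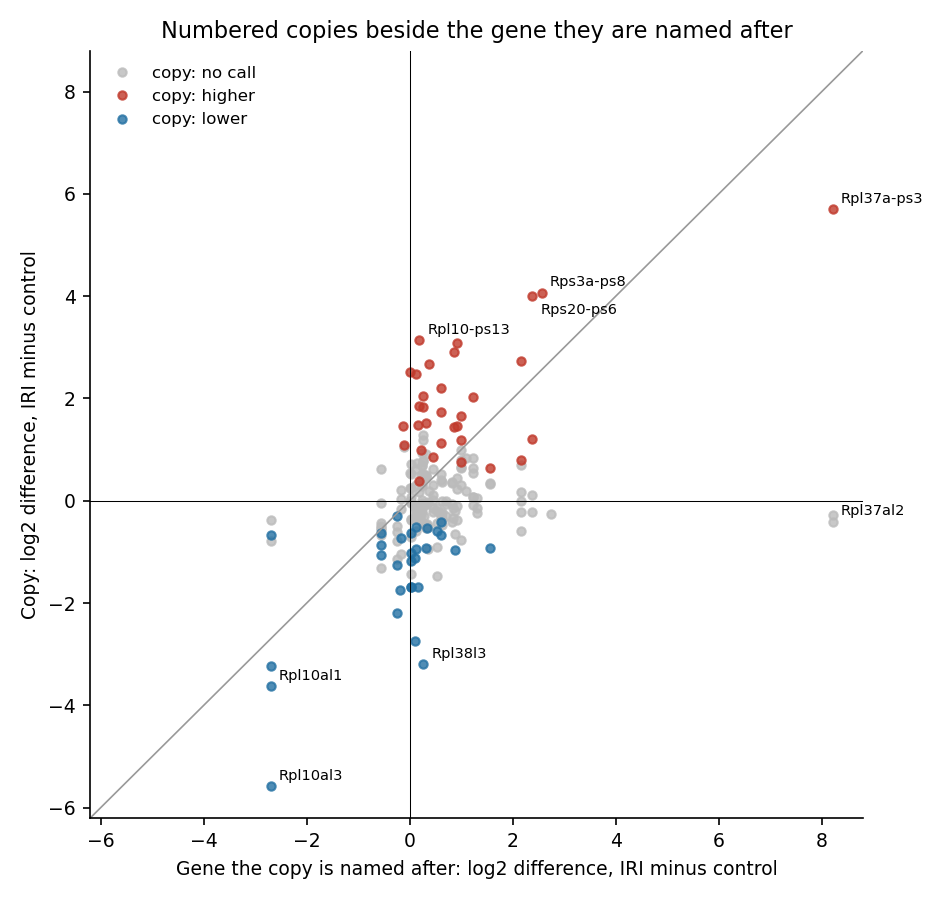
Each point is 1 of 207 copies, with the log2 difference of IRI from control of the gene it is named after on the x axis and its own on the y axis, both on deposited values, and colours are limma calls of the copy. The grey diagonal marks equal differences. The 3 copies of Rpl37a lie at 5.71, −0.27 and −0.41 above the same x value of 8.21, and those of Rpl10a all lie below 0. After quantile normalization most members are lower, with a median of −0.72 in both classes.

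RpostC_IRI arrays were compared with the same 3 control arrays, so that the 2 comparisons with control are not independent. On deposited values 30 of 66 canonical genes were higher and 4 were lower (10.7% and 6.95% of all probe sets), with a median difference of 0.38, whereas after quantile normalization 1 was higher and 43 were lower (7.75% and 14.2%), with a median of −0.77. Of the copies, 44 were higher and 25 were lower, with a median of 0.01, and after quantile normalization 11 were higher and 108 were lower. Without RpostC_IRI replicate 1, the number of copies called higher was 27. Centring each array on its median moved the median of all probe sets in this comparison from −0.06 to 0.06 and gave 36 canonical genes and 53 copies that were higher and 3 and 19 that were lower, beside 12.9% and 4.12% of all probe sets. Without adjustment, at a p under 0.05, 41 canonical genes were higher and 4 were lower, beside 30.8% of all probe sets in either direction. All 3 RpostC_IRI arrays lay above the control arrays for 39 canonical genes and 67 copies and below them for 4 and 55, beside 15.6% and 17.3% of all probe sets. Side by side, the differences of IRI and of RpostC_IRI from control were 8.21 and 8.26 for Rpl37a, 3.23 and 3.41 for Rps4x, 2.75 and 2.90 for Rpl39, −2.70 and −2.77 for Rpl10a, 5.71 and 5.74 for Rpl37a-ps3, and −5.58 and −5.44 for Rpl10al3. Rpl36a, a large subunit protein that contacts the end of the tRNA in the exit site, differed by 0.24 in IRI (limma adjusted p = 0.132) and by 0.36 in RpostC_IRI (limma adjusted p = 0.0327), a call that was lost without each of 7 single arrays, which were all but control replicate 1 and RpostC_IRI replicate 3 (limma adjusted p = 0.0508 to 0.0882). Both differences of Rpl36a became negative after quantile normalization (−0.55 and −0.56).

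Between RpostC_IRI and IRI, the comparison that isolates the remote postconditioning, no member passed the test, nor did any probe set of the array (0.0% called, limma, smallest adjusted p = 0.29). The median difference was 0.04 for the canonical genes, from −0.49 to 0.41, and 0.06 for the copies, from −0.46 to 1.32. At an unadjusted p under 0.05, 0 canonical genes and 8 copies differed, beside 3.51% of all probe sets. The methods' t-test called 8 copies higher and 1 lower at p under 0.05 without adjustment and a fold of at least 1.2, and 0 after Benjamini-Hochberg adjustment. For the calls at that fold no share of all probe sets is given, so the counts cannot be weighed against the whole array. The 3 RpostC_IRI arrays lay above the 3 IRI arrays for 1 canonical gene and 14 copies, beside 2.63% of all probe sets. They lay below the IRI arrays for 0 canonical genes and 1 copy, beside 3.2% of all probe sets. For 16 of 66 canonical genes the 6 arrays of the 2 groups held 1 identical value, against 10 of 221 copies and 6.1% of all probe sets. These probe sets have a difference of 0 and no spread within either group. The SE of that difference comes only from the control arrays and the prior of the fit. A p that misses the threshold does not show that the groups are alike.

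Of the 8 copies, Rpl6-ps1, a pseudogene on chromosome 6, had the widest gap. It read 5.67, 5.88 and 5.35 in control, 8.28, 8.14 and 8.47 in IRI, and 9.57, 10.03 and 9.24 in RpostC_IRI, and no array of 1 group entered the range of another. The difference of RpostC_IRI from IRI was 1.32 ± 0.22 (limma, unadjusted p = 0.000541, adjusted p = 0.709), and 1.02 after quantile normalization. Rpl10-ps14, annotated as protein coding, stood at 7.35 on all 3 IRI arrays and at 7.63, 7.75 and 7.66 in RpostC_IRI, a difference of 0.32 ± 0.05 (limma, unadjusted p = 0.000479, adjusted p = 0.709), and of 0.20 after quantile normalization. Rpl12-ps1 stood at 13.11, 13.12 and 13.19 in IRI and at 13.46, 13.43 and 13.43 in RpostC_IRI, a difference of 0.31 on deposited values and of 0.00 after quantile normalization. Rpl36l6 was the 1 copy of the 8 that was lower, at 7.20, 6.90 and 7.20 in IRI against 6.77, 6.69 and 6.74 in RpostC_IRI. The remaining 4, Rpl29l6, Rps20-ps1, Rpl18al1 and Rpl12-ps7, were higher by 0.58, 0.57, 0.37 and 0.31. Among canonical genes the smallest p belonged to Rpl34, at 12.10, 11.96 and 12.10 in IRI and 12.51, 12.39 and 12.10 in RpostC_IRI (limma, unadjusted p = 0.055), followed by Rpl18, Rps9 and Rps21 with differences of 0.13, 0.17 and 0.21.

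**Figure D5:**
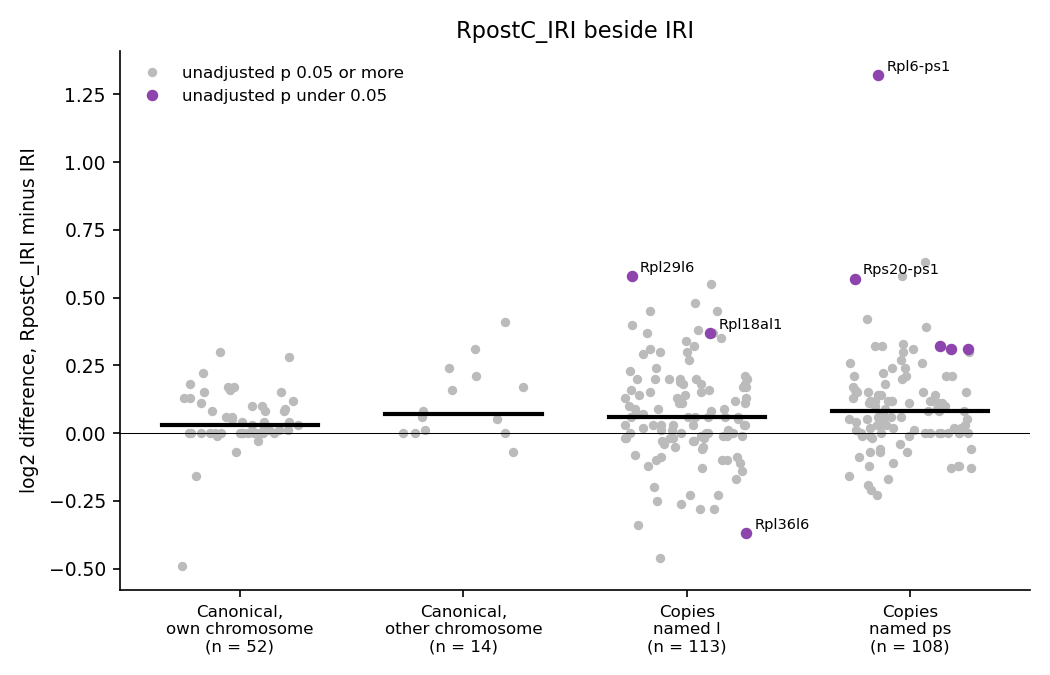
Each point is 1 gene, and the y axis is the log2 difference of the mean of 3 RpostC_IRI arrays from that of 3 IRI arrays on deposited values. Black bars are the medians of canonical genes with a probe set on their own or another chromosome and of copies named l and ps. The 8 copies at an unadjusted p under 0.05 are purple, and those beyond 0.34 from 0 are named. Rpl6-ps1 lies at 1.32, and the canonical genes lie between −0.49 and 0.41. None of the points passed the test after adjustment, and after quantile normalization Rpl6-ps1 is at 1.02.

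Several canonical genes have a paralog with its own role. Rpl3l replaces Rpl3, which sits near the site of peptide bond formation, in heart and skeletal muscle. Rpl3l read 7.98, 7.95 and 8.42 in control, 7.50, 7.60 and 7.58 in IRI, and 6.98, 7.60 and 7.58 in RpostC_IRI, so that all treated arrays lay below the control arrays. The difference was −0.56 ± 0.19 for IRI (limma adjusted p = 0.109) and −0.73 for RpostC_IRI, which passed the test (limma adjusted p = 0.0403) but missed it without any 1 of the 9 arrays (limma adjusted p = 0.0535 to 0.101), and both signs held after quantile normalization. Rpl3 was at 7.72, 7.74 and 7.34 in control and at 7.96, 7.90 and 7.92 in IRI, a difference of 0.33 (limma adjusted p = 0.113) that was −0.48 after quantile normalization. Rps27l, a target of p53 that can stand in for Rps27, was at 6.76, 7.46 and 6.50 in control and at 6.47, 6.50 and 6.29 in IRI, and neither its difference of −0.49 nor that of Rps27, −0.14, passed the test on deposited values. Rpl7l1, counted among the copies by its symbol but a paralog of Rpl7 found in pre-ribosomes in humans, rose from 5.87, 5.97 and 5.54 to 6.79, 6.58 and 6.43, by 0.80 ± 0.13 (limma adjusted p = 0.00564) and by 0.51 after quantile normalization, and Rpl22l1, the paralog of Rpl22, differed by −0.14 (limma adjusted p = 0.592). Rps19bp1, which binds Rps19 and Sirt1 and is no ribosomal protein, differed by 0.07.

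The canonical genes were also split by whether the annotated first base was a C followed by at least 4 pyrimidines, with no test of the split. A run that had begun before that base was counted as well. Of the 22 genes with such a first base, 7 were higher and 2 were lower in IRI on deposited values, with a median of 0.47. Of the 34 genes in the promoter table without it, 11 were higher and 2 were lower, with a median of 0.27. Of all probe sets, 9.95% were higher and 6.26% were lower, with a median of −0.04. After quantile normalization 0 genes with such a first base were higher and 12 were lower, and 1 and 23 of those without it. The medians were then −0.63 and −0.78, beside −0.02 over all probe sets, of which 7.25% were higher and 13.7% were lower.

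Of 6 measured ribosomal proteins whose symbols lie outside the rule, 2 were higher and 0 were lower on deposited values, and 1 was higher and 5 were lower after quantile normalization. Rplp0, Rplp1 and Rplp2 form the stalk that recruits elongation factors. Rplp2 read 8.23, 7.81 and 8.12 in control, 11.20, 10.50 and 10.50 in IRI, and 10.99, 11.19 and 11.13 in RpostC_IRI, and it rose by 2.68 ± 0.21 and by 1.39 after quantile normalization (limma adjusted p = 8.56e-05 for the first). Rplp1 rose from 14.99, 15.04 and 14.57 to 16.20, 16.02 and 16.20, by 1.27, and turned to −3.86, while Rplp0 differed by 0.19 (limma adjusted p = 0.257). Rpsa, the small subunit protein also known as the laminin receptor, Fau, the precursor of a small subunit protein fused to a ubiquitin-like domain, and Rack1, a signaling scaffold on the small subunit, differed by −0.17, 0.51 and 0.23, and none of the 3 passed the test. The reference gene Gapdh read 19.35 on all 9 arrays and was lower by 3.10 in IRI after quantile normalization.

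The genes that build and serve the ribosome were given by lists. Their counts stand beside 9.95% higher and 6.26% lower of all probe sets on deposited values and 7.25% and 13.7% after quantile normalization. Of 63 measured ribosome biogenesis genes, 15 were higher and 2 were lower in IRI, with a median difference of 0.04, and after quantile normalization 6 were higher and 25 were lower. The nucleolar GTPase Gnl3 rose from 5.73, 5.68 and 5.92 to 7.43, 7.43 and 7.77 and the pre-rRNA processing factor Wdr43 from 6.62, 6.78 and 6.38 to 8.52, 8.28 and 8.79, by 1.77 and 1.94, and both kept their sign after quantile normalization (1.42 and 1.34). Tsr1, needed for the small subunit, rose by 0.59 (0.30 after quantile normalization), and nucleolin, Ncl, rose by 1.90 and turned to −4.17. Of 44 translation factors, 6 were higher and 7 were lower, with Eif4a3, a helicase of the exon junction complex, up by 1.35 (0.65 after quantile normalization), the initiation factors Eif5 and Eif3j up by 1.09 and 0.82 and the elongation factor Eef1g up by 1.03, and after quantile normalization 1 was higher and 37 were lower, with Eif5, Eif3j and Eef1g at −3.61, −0.86 and −0.91. Of 24 regulators of TOP mRNAs and mTOR, 4 were higher and 5 were lower, and 2 and 13 after quantile normalization. Tsc2, an inhibitor of mTOR, fell from 6.52, 6.39 and 6.53 to 5.65, 5.66 and 5.53, by 0.87, and Mtor and the S6 kinase gene Rps6kb1 fell by 0.63 and 0.65, while Myc, a transcription factor that drives ribosome synthesis, rose from 6.02, 5.89 and 6.49 to 7.77, 7.77 and 8.41, by 1.85. These 4 held their direction after quantile normalization, Myc at 1.38. Of 14 genes of the ribosomal stress and p53 list, 4 were higher and 0 were lower, and 2 and 3 after quantile normalization, with Mdm4, a partner of Mdm2 in holding p53 down, up by 2.36 and the growth arrest gene Gadd45a by 2.02 (limma adjusted p = 0.00562 and 0.0132), which stood at 1.62 and 1.58 after quantile normalization. Cyclin G1, Ccng1, a target of p53, rose by 1.01 but turned to −4.35, and Atf4, a transcription factor of the integrated stress response, rose by 1.29, which missed the threshold without control replicate 3 (limma adjusted p = 0.0148 and 0.0511). Between RpostC_IRI and IRI, 0 genes of these lists passed the test with limma, and at an unadjusted p under 0.05 they were 2 of the biogenesis genes, 1 translation factor, 1 regulator and 0 of the others, beside 3.51% of all probe sets.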

How the data were processed

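Per the labels, total RNA of 9 samples in 3 groups was measured on Affymetrix arrays. The methods name the Rat Gene 2.0 ST chip and the series record a human transcriptome array. The authors applied robust multichip analysis (RMA), and the deposited values are log2 signals. Neither the software version nor joint normalization of all arrays is stated in the sources. Of 65526 probe sets, 123 controls were left out, and 65403 were tested. Through the platform annotation 22070 had a single symbol, 478 several and 42855 none. All 290 symbols of the rule matched RefSeq, 25 members had more than 1 probe set, and 11 probe sets of the family with several symbols were not used.

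All groups entered 1 fit with the lmFit and eBayes functions of limma 3.58.1 under R 4.3.3 (prior degrees of freedom 1.10), with Benjamini-Hochberg adjustment over all tested probe sets and a threshold of 0.05. The number of arrays, 3 per group, limits the precision. In simulated data for IRI against control, the fit called 51% of 100 probe sets shifted by 1 on the log2 scale, 88% of 100 shifted by 2, and 12 of 65203 unshifted ones. Only these few were shifted, whereas 6509 probe sets were higher and 4094 lower in the deposited values, so the adjusted threshold was stricter in the simulation. Its noise was normal with the same spread in all groups, without the identical values of many real arrays. The rates therefore do not carry over to these data. Named genes were, per class, the 6 with the largest called rise and the 6 with the largest called fall in IRI against control, the 4 of smallest p in RpostC_IRI against IRI, those with known roles, the ribosomal proteins outside the symbol rule, up to 4 genes of smallest p per list, and Gapdh. Genes with several probe sets, copies described beside their parent and copies at an unadjusted p under 0.05 were named after their values were seen. The members and lists were chosen with earlier results of these data known. Alternatives are given at the end. Protein sequences were not used here. Further tools were Python 3.11.15, numpy 2.4.6, pandas 2.3.3 and matplotlib 3.10.9.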

Additional observations from a re-analysis of the deposited data

How the results depend on the processing

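Quantile normalization of the deposited values gave 1 canonical gene higher and 42 lower in IRI against control (median −0.72) and 1 and 43 in RpostC_IRI against control (median −0.77), and 11 copies higher and 110 lower (median −0.72) and 11 and 108 (median −0.70). Under it these genes reversed in IRI against control: Rps29 at −1.05, Rps3a-ps8 at −1.42, Rpl3 at −0.48, Rpl22 at −4.76, Rpl10 at −1.16, Rpl7 at −1.84, Rpl36a at −0.55, Rps6 at −1.08, Rpl5 at −0.90, Rpl13a at −0.91, Rps19 at −1.23, Rplp0 at −1.16, Rplp1 at −3.86, Fau at −1.77, Rack1 at −1.87, Ncl at −4.17, Eif5 at −3.61, Eif3j at −0.86, Eef1g at −0.91, Ccng1 at −4.35, Rpl38l1 at −1.11, Rpl38-ps1 at −2.67, Rpl38 at −1.97 and Rps24 at −4.19. Gapdh, which did not differ on deposited values, was at −3.10. In RpostC_IRI against control, Rps29 was then at −1.06, Rps3a-ps8 at −1.56 and Rpl36a at −0.56. The cause was not tested.

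Without probe sets of identical values, 34 canonical genes remained to be tested, and 13 and 17 were higher in IRI and RpostC_IRI against control (median 0.57 in the latter). The methods' t-test with adjustment called 2 and 2 canonical genes lower, 15 canonical genes higher in RpostC_IRI, 18 copies higher and 14 lower in IRI, and 22 higher and 13 lower in RpostC_IRI. At an unadjusted p with a fold of 1.2 it called 8 copies higher and 1 lower in RpostC_IRI against IRI, with no share of all probe sets given. Averaging the probe sets of each gene left 2 and 2 canonical genes lower and turned Rps21 to 0.04 in IRI and 0.26 in RpostC_IRI. Only probe sets on the chromosome of their gene, a setting chosen after seeing the data, left 61 canonical genes with 1 lower in each comparison, and 21 and 25 higher. Without dim probe sets the medians of the copies were 0.28 and 0.30. For the settings of this paragraph and for leaving out arrays, no share or median over all probe sets is given. Whether the members moved more than the whole array under them cannot be read from these values.

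Leaving out each array in turn gave, in IRI against control, 21 to 32 canonical genes higher and 3 to 5 lower (median 0.23 to 0.39), and 28 to 49 copies higher and 22 to 36 lower. In RpostC_IRI against control it gave 22 to 33 and 3 to 5 canonical genes (median 0.30 to 0.47), and 27 to 55 copies higher, the lowest without RpostC_IRI replicate 1, and 20 to 27 lower. Between RpostC_IRI and IRI every count stayed at 0.

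Same-numbered arrays did not deviate together (correlations from −0.30 to 0.04), so the numbers were not taken as pairs. With the replicate block, 22 canonical genes were higher and 4 lower and 35 copies higher and 26 lower in IRI against control, 28, 4, 41 and 22 in RpostC_IRI, and 0 between the treated groups. The shares of all probe sets with the block are not given either. Rps6 and Rpl10a-ps1 then missed the threshold (limma adjusted p = 0.0518 and 0.0816) and Fau passed it (limma adjusted p = 0.0335), and no other call of a named gene changed with the block. Over all settings, the recomputed values of single genes reversed in 30 cases, lost a call in 121 and gained one in 26 without a change of direction, and kept both in 2161.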
